A study of Mus musculus with 24 samples.

Results

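CAST/EiJ mice were compared with C57BL/6J mice after a high-fat, high-sucrose diet, in RNA-seq libraries of fat labelled inguinal subcutaneous. The comparison takes 6 of the 24 libraries of the series, chosen by their strain and diet labels alone: 3 CAST/EiJ and 3 C57BL/6J libraries, each from 1 female mouse. All 6 mice came from The Jackson Laboratory, received the diet from 4 weeks of age and were 26 weeks old at collection. That diet held 45% of its energy as fat and 34% of its weight as sucrose. The same strain pair on the standard diet, with 17% of energy as fat, is set beside it with 3 CAST/EiJ and 3 C57BL/6J libraries that it does not share. The series covers 4 inbred strains on both diets, and its title names a search for genes of fat cells that act against diabetes.

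C57BL/6J is the laboratory strain from which the mouse reference genome was built, and it gains weight readily on fat-rich food. CAST/EiJ was derived from wild mice of the subspecies Mus musculus castaneus and is small and lean. White fat stores triglyceride in adipocytes and also holds vessels, progenitor cells, macrophages and lymphocytes. Inguinal fat can form beige adipocytes, which burn fatty acids in mitochondria and release the energy as heat through the uncoupling protein Ucp1. Major histocompatibility complex (MHC) class II proteins display peptides to helper T cells, and the transactivator Ciita switches their genes on together. Macrophages and other antigen-presenting cells carry them at high levels, and adipocytes of mice on fat-rich food can carry them too. Both genome builds named for the authors' processing derive from C57BL/6J, so a strain difference in RNA and a loss of CAST/EiJ reads through mismatches to the reference cannot be told apart. MHC genes are among the most variable between strains.

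One library stood apart from its label. Adipoq, the gene of the fat cell hormone adiponectin, was at 4.75 CPM (counts scaled to a common library total) in CAST/EiJ replicate 1, against 1570 and 2420 CPM in CAST/EiJ replicates 2 and 3 and 1290 to 2030 CPM in the C57BL/6J libraries. In the same library the 10 smooth muscle markers summed to 15500 CPM, against 434 to 1740 CPM in the other 5. Its 18 mammary epithelium markers summed to 2930 CPM, against 45.7 to 162 CPM. Among epithelial genes, Epcam, Krt8 and Cdh1 were at 175, 249 and 320 CPM in it, against at most 11.5, 14.6 and 23.9 CPM elsewhere. Krt14 lay below the 1.1 and 2.12 CPM of CAST/EiJ replicates 2 and 3, and above the 0.126 to 0.247 CPM of C57BL/6J. Elf5 stayed at 0.174 CPM or less in every library compared. The mammary sum therefore does not single out mammary tissue, and its source was not tested. The 7 kidney markers of CAST/EiJ replicate 1 summed to 4020 CPM, almost all of it Kap, against 0.734 to 24.1 CPM. The 12 reproductive tract markers summed to 481 CPM in CAST/EiJ replicate 1, against 29.3 and 13.4 CPM in CAST/EiJ replicates 2 and 3. C57BL/6J replicate 1 was also raised in them, at 149 CPM against 14 and 15 CPM in C57BL/6J replicates 2 and 3. Prss28 and Prss29 were at 150 and 508 CPM in C57BL/6J replicate 1 and at 0.189 CPM or less in the other 5. C57BL/6J replicate 1 is kept in the results below. Lymphocyte markers moved with strain: the 19 genes summed to 8.86, 11.5 and 19.0 CPM in CAST/EiJ libraries and to 148, 157 and 115 CPM in C57BL/6J libraries. The liver list, which holds abundant plasma protein genes, summed to 178, 1640 and 1580 CPM in CAST/EiJ and to 2830, 3750 and 6800 CPM in C57BL/6J libraries. Library totals ran from 47651641 to 71600235 counts. Results below are therefore given without replicate 1 of CAST/EiJ, from 2 CAST/EiJ and 3 C57BL/6J libraries. The value with all 3 is added for the counts of lists, and for a gene where it changes the call or moves the fold by over 1.5 times.

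**Figure D1:**
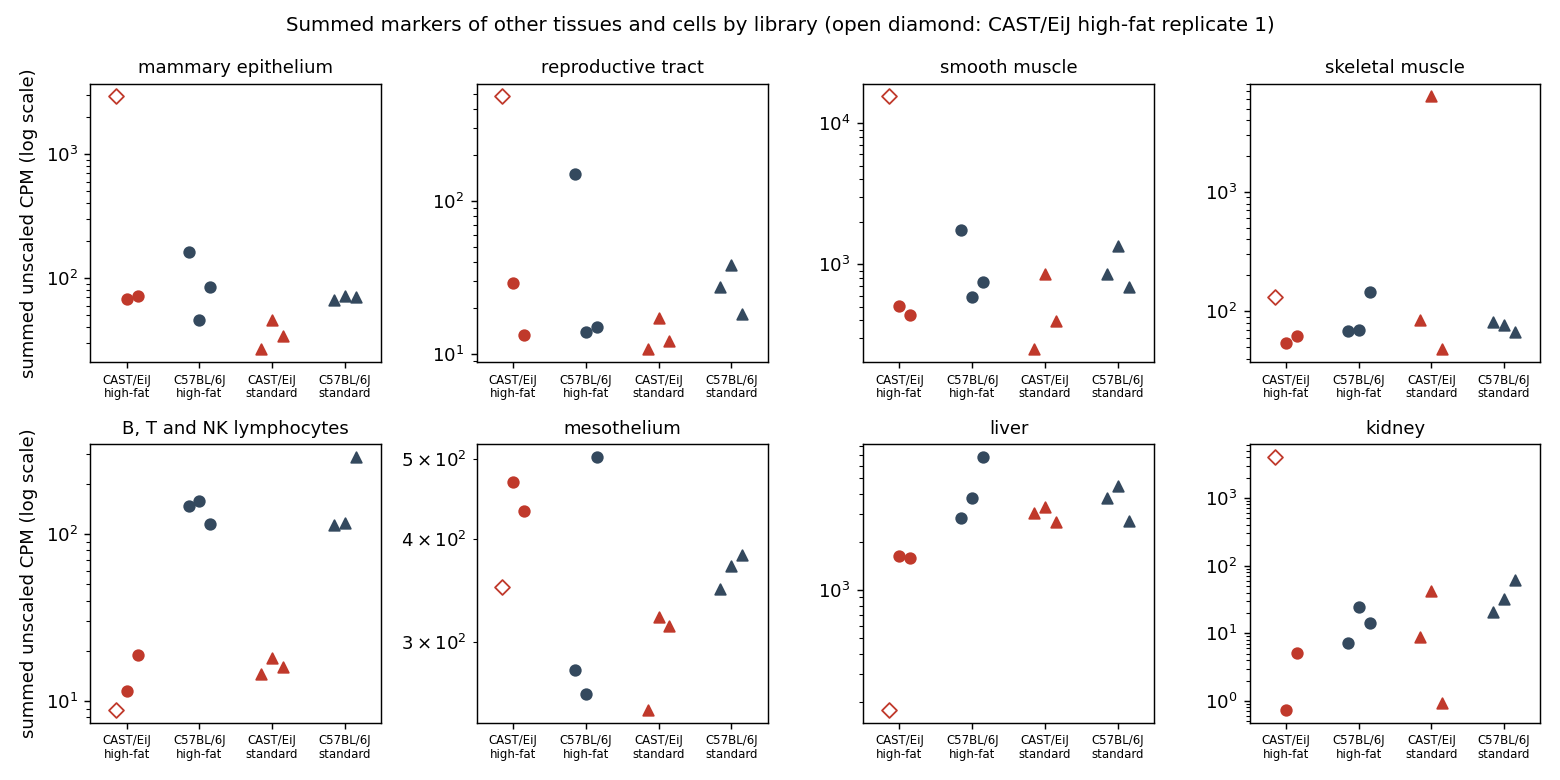
Summed CPM of 8 marker lists in each library, on a log axis, for CAST/EiJ and C57BL/6J on the high-fat diet and then on the standard diet. The open diamond is CAST/EiJ high-fat replicate 1, at 15500 CPM for smooth muscle and 2930 CPM for mammary epithelium; lymphocyte sums of the CAST/EiJ high-fat libraries, at 8.86 to 19.0 CPM, lie below the C57BL/6J ones at 115 to 157 CPM.

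Differences were tested gene by gene with edgeR's quasi-likelihood test, and a gene was called when its Benjamini-Hochberg adjusted p was below 0.05. Without replicate 1, 2869 genes were higher and 3441 lower in CAST/EiJ than in C57BL/6J on the high-fat diet, which is 14.1% and 16.9% of the 20385 genes tested and 31% in all. With all 3 CAST/EiJ libraries, 2425 genes were higher and 2773 lower, or 12.1% and 13.8% of 20035 genes and 25.9% in all. Called in both with the same sign were 3971 genes (19.8%), of which 1637 were higher and 2334 lower; 5 genes were called with opposite signs. The median called gene differed by 1.04 on the log2 scale without replicate 1, and 3295 called genes differed by more than 2-fold. Gene values below are normalised CPM (library totals scaled by trimmed means), and log2 differences are CAST/EiJ minus C57BL/6J without replicate 1, ± their standard error, unless stated otherwise.

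The strain difference recurred on the standard diet in libraries that the high-fat comparison did not use. There 3966 genes (19.5%) were higher and 4105 (20.1%) lower in CAST/EiJ, from 3 libraries a strain. Of the 6310 genes called on the high-fat diet, 4892 were called on both diets, 4864 with the same sign and 28 with opposite signs. They make up 77.5% of the high-fat calls and 60.6% of the standard-diet calls. The sign on the standard diet matched that on the high-fat diet for 95.7% of the high-fat calls, against 78.1% of all genes tested. A further 1418 high-fat calls did not pass on the standard diet, which does not show that the strain difference depends on diet.

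**Figure D2:**
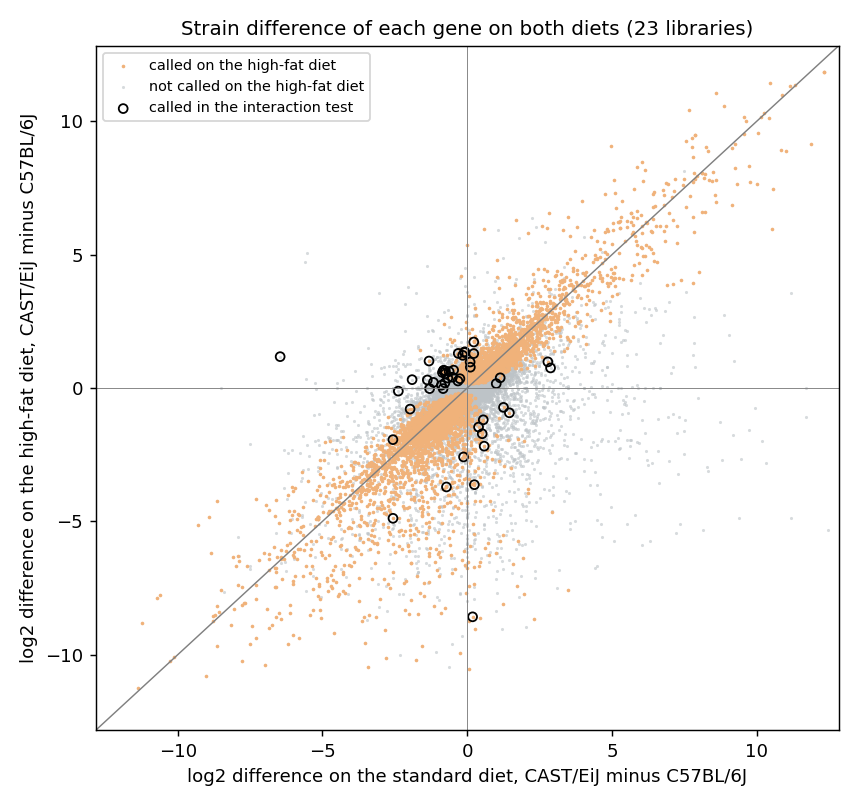
Log2 strain difference on the high-fat diet (without CAST/EiJ replicate 1) against that on the standard diet, 1 point per gene, CAST/EiJ minus C57BL/6J on both axes. Most called genes lie along the diagonal. Black rings mark the 46 genes called in the test of whether the strain difference itself differed between diets.

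Gene lists of fat, immune and other functions were then read against these shares. MHC class II, cytokine, interferon and lymphocyte lists lay mostly below 0, and lists of fatty acid oxidation, oxidative phosphorylation and brown or beige adipocytes mostly above it. The lists were chosen with earlier results of these data known, and their counts describe them only. Some genes, such as Cidea, belong to more than 1 list, so the counts of different lists are not separate. In bulk tissue, fewer cells of a type and less RNA per cell cannot be told apart.

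**Figure D3:**
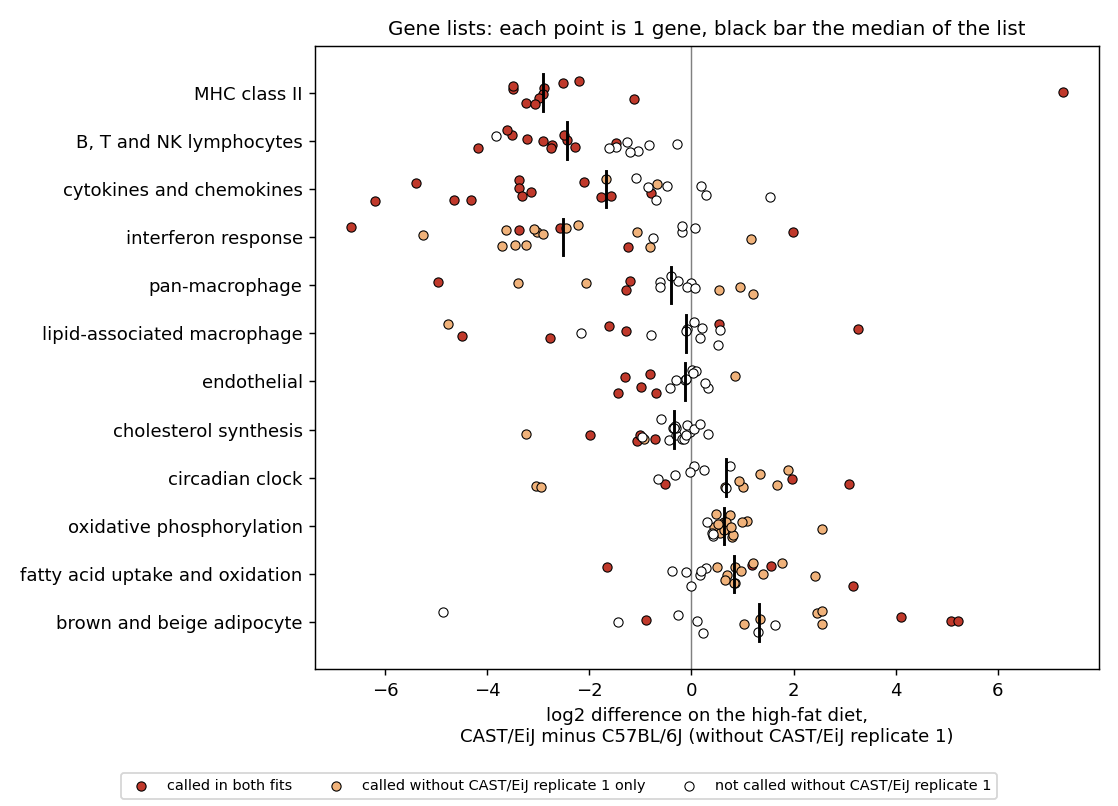
Log2 difference on the high-fat diet, CAST/EiJ minus C57BL/6J without CAST/EiJ replicate 1, for the members of 12 gene lists; each point is 1 gene and each black bar the list's median. Red points were called in both fits, orange points without replicate 1 only; 10 of 11 MHC class II genes lie below 0 in red, and the 16 called oxidative phosphorylation genes lie above 0 in orange.

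MHC class II genes were lower in CAST/EiJ fat as a group. Of 11 measured members, 10 were lower and 1 higher, with the same counts when replicate 1 was included and on the standard diet, against shares of 16.9% and 14.1% over all genes. The list's median difference was -2.91, against -0.06 for all genes. Promoters of a pair of these genes are shown because their level moved together and because class II promoters are known to hold an inverted CCAAT box, the Y box bound by nuclear factor Y. The sequences are RefSeq windows of GRCm38.p6, from 250 bases before to 50 after the start, on the strand of the gene. H2-Aa lies at chr17:34287774-34288073 on the minus strand and H2-Eb1 at chr17:34305617-34305916 on the plus strand. Capitals mark GATTGG or its reverse complement.
H2-Aa: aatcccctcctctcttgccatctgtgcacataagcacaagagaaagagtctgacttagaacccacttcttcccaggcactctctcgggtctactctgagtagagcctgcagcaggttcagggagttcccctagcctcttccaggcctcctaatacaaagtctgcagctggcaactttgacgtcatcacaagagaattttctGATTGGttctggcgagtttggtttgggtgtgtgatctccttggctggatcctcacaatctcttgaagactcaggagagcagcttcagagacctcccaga
H2-Eb1: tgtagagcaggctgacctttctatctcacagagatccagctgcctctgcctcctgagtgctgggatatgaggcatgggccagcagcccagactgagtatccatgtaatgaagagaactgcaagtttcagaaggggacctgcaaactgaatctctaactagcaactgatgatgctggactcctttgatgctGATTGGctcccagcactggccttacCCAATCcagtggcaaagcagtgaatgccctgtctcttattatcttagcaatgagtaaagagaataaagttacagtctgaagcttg
The letters GATTGG, searched on both strands, occurred in the windows of 7 of 7 class II members that had one, and in 16.1% of all 32851 windows.

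H2-Aa, the alpha chain of the class II molecule I-A, had 40.4, 50.8 and 26.5 CPM in CAST/EiJ replicates 1 to 3, against 328, 449 and 324 CPM in the C57BL/6J libraries. The groups did not overlap, and the difference was -3.24 ± 0.34 (adjusted p = 1.05e-06) without replicate 1 and -3.23 with it. On the standard diet H2-Aa had 24.9, 38.2 and 29.2 CPM in CAST/EiJ and 421, 301 and 469 CPM in C57BL/6J. Its partner chain H2-Ab1 differed by -2.89, and H2-Eb1, a chain of the I-E molecule, by -2.91. Cd74, the invariant chain that escorts class II molecules through the cell, had 104, 119.8 and 69.5 CPM in CAST/EiJ and 655, 1016 and 703 CPM in C57BL/6J (-3.06 ± 0.30, adjusted p = 5.8e-07). Ciita had 3.10, 1.90 and 1.68 CPM in CAST/EiJ and 15.7, 26.7 and 18.5 CPM in C57BL/6J (-3.50 ± 0.34, adjusted p = 4.53e-07). H2-DMa, which loads peptides, had 2.68, 3.23 and 2.76 CPM in CAST/EiJ and 15.6, 21.6 and 14.6 CPM in C57BL/6J (-2.52). The exception was H2-Ea-ps, the I-E alpha chain, whose promoter is deleted in C57BL/6J. It had 22.3, 19.7 and 12.2 CPM in CAST/EiJ and 0.103, 0.110 and 0.094 CPM in C57BL/6J (7.27 ± 0.39, adjusted p = 1.41e-10).

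MHC class I, which presents peptides from inside every cell, gave fewer calls. Of 15 members 3 were lower and 0 higher without replicate 1, and 3 lower and 1 higher with it. The lower count is near the 16.9% of all genes, so it is not a result about the list. H2-K1 had 1238, 680.5 and 1003 CPM in CAST/EiJ and 1522, 2073 and 2290.0 CPM in C57BL/6J (-1.21 ± 0.21, adjusted p = 0.000304), and H2-M3 differed by -0.94. Tap1, a subunit of the peptide transporter, had 77.6, 24.8 and 31.5 CPM in CAST/EiJ and 50.1, 62.4 and 74.2 CPM in C57BL/6J. It differed by -1.14 without replicate 1 (adjusted p = 0.000865) and by -0.48 with it (adjusted p = 0.264). H2 class I genes share near-identical stretches, so their split by the authors' counting is uncertain.

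**Figure D4:**
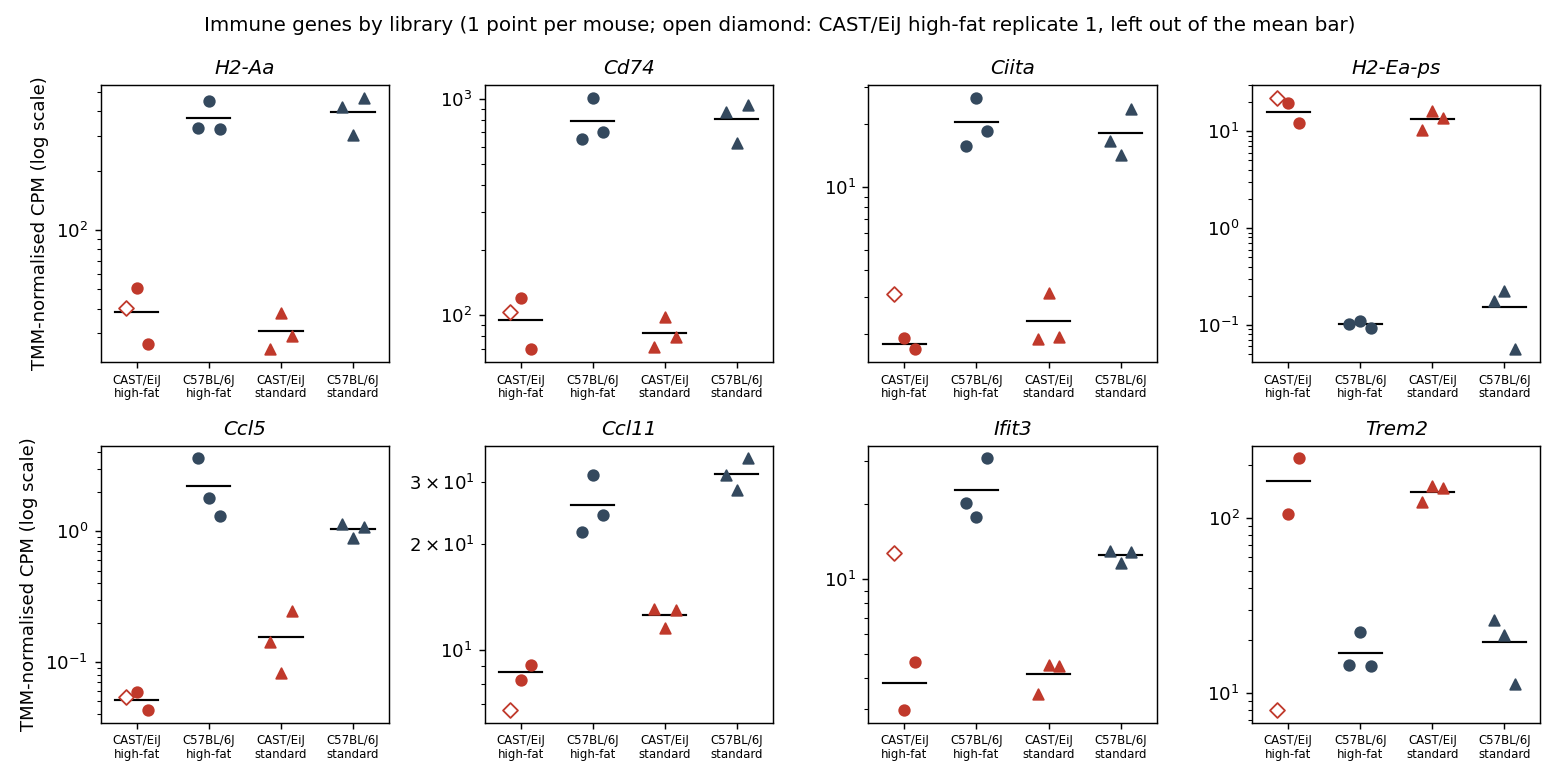
Normalised CPM of 8 immune genes in each library, on log axes, CAST/EiJ then C57BL/6J on the high-fat diet and then on the standard diet; bars are group means and the open diamond is CAST/EiJ high-fat replicate 1, left out of its mean. H2-Aa is at 26.5 to 50.8 CPM in CAST/EiJ and 324 to 449 CPM in C57BL/6J on the high-fat diet, whereas Trem2 in CAST/EiJ replicates 2 and 3, at 105 and 219 CPM, lies above C57BL/6J.

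Chemokines that draw leukocytes into tissue were lower as well. Of 21 cytokines and chemokines, 14 were lower and 0 higher without replicate 1, 12 lower with it, and 13 lower on the standard diet. Ccl11 (eotaxin), which attracts eosinophils, had 6.74, 8.22 and 9.05 CPM in CAST/EiJ and 21.7, 31.5 and 24.2 CPM in C57BL/6J (-1.57 ± 0.15, adjusted p = 5.52e-07). Ccl5, which attracts T cells and monocytes, had 0.054, 0.059 and 0.043 CPM in CAST/EiJ and 3.61, 1.79 and 1.30 CPM in C57BL/6J (-5.39 ± 0.67, adjusted p = 8.26e-06). Cxcl9, an interferon-gamma target that attracts T cells, had 0.323, 4.58 and 9.36 CPM in CAST/EiJ and 24.8, 28.4 and 37.1 CPM in C57BL/6J. Its difference was -2.10, and -2.71 without CAST/EiJ replicate 3. Ccl8 had 6.03, 0.489 and 0.323 CPM in CAST/EiJ and 7.72, 17.3 and 5.90 CPM in C57BL/6J. It differed by -4.64 without CAST/EiJ replicate 1, by -2.16 with it, and by -4.06 without C57BL/6J replicate 2. All 3 C57BL/6J libraries were above all CAST/EiJ libraries for Ccl11, Ccl5 and Cxcl9, while Ccl8 in CAST/EiJ replicate 1 reached the C57BL/6J range.

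Lymphocyte markers were called lower for 11 of 19 genes and higher for 0 without replicate 1, and lower for 13 with it. Their summed levels, given above, moved with the class II and chemokine genes, and their part in those results was not tested. The sum is mostly Ighm, the heavy chain of immunoglobulin M, and Cd3e of the T cell receptor complex stayed at 0.509 CPM or less in all 6 libraries.

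Macrophage genes did not move as 1 group. Of 15 pan-macrophage genes 3 were higher and 5 lower without replicate 1, and 0 were higher and 4 lower with it. Adgre1, the surface protein F4/80, had 22.1, 36.9 and 36.0 CPM in CAST/EiJ and 68.5, 105 and 79.8 CPM in C57BL/6J (-1.20 ± 0.23, adjusted p = 0.000684). Cd68, a lysosomal protein, had 18.8, 20.7 and 18.6 CPM in CAST/EiJ and 38.6, 63.4 and 41.5 CPM in C57BL/6J (-1.28, adjusted p = 7.7e-05). Marco, a scavenger receptor, was at 0, 0 and 0.043 CPM in CAST/EiJ and at 0.567, 1.06 and 0.501 CPM in C57BL/6J. In the other direction, Cd163, a haemoglobin scavenger receptor of resident macrophages, had 199 and 195 CPM in CAST/EiJ replicates 2 and 3 and 68.9, 113 and 128 CPM in C57BL/6J. It was at 1.17 CPM in CAST/EiJ replicate 1, so the difference was 0.94 without that library (adjusted p = 0.00219) and 0.35 with it (adjusted p = 0.781). Lyz1, a lysozyme with a near-identical copy, differed by 1.21 without replicate 1 and by 0.74 with it (adjusted p = 0.221). Fcgr1, a high-affinity antibody receptor, differed by -2.07 without CAST/EiJ replicate 1, by -0.72 with it (adjusted p = 0.284), and by -2.68 without CAST/EiJ replicate 2.

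Among genes of lipid-associated macrophages, which gather around dying adipocytes, Trem2 was 1 of 2 higher of 16, while 5 were lower and 9 were not called. With replicate 1, 4 were higher and 4 lower. Trem2, a lipid receptor, had 8.01, 105 and 219 CPM in CAST/EiJ and 14.5, 22.3 and 14.3 CPM in C57BL/6J. CAST/EiJ replicates 2 and 3 were above all C57BL/6J libraries and replicate 1 below them, and the difference was 3.26 ± 0.38 (adjusted p = 3.51e-06), 2.70 with replicate 1 (adjusted p = 0.00577) and 2.63 without CAST/EiJ replicate 3. On the standard diet Trem2 had 123, 153 and 147 CPM in CAST/EiJ and 26.3, 21.5 and 11.3 CPM in C57BL/6J. Itgax (CD11c) differed by -2.77, Ctss, the protease that trims the invariant chain, by -1.61 (-0.94 with CAST/EiJ replicate 1), and Acp5, an acid phosphatase, by -1.28. Mmp12, a macrophage elastase, had 0.566, 0.705 and 1.06 CPM in CAST/EiJ and 22.6, 35.6 and 1.08 CPM in C57BL/6J, where replicate 3 lay at the CAST/EiJ level. Its difference was -4.48 (adjusted p = 0.00303), and -3.76 without C57BL/6J replicate 2.

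Genes induced by interferon were lower in CAST/EiJ replicates 2 and 3. Without replicate 1, 16 of 22 were lower and 2 higher, with a median of -2.51, and on the standard diet 15 were lower and 2 higher. With replicate 1 the counts were 4 lower and 2 higher, and the median was -0.16. Promoters of Rsad2 and Ifit3 are shown because interferon-stimulated genes share a known response element. The RefSeq windows of GRCm38.p6 are chr12:26456403-26456702 on the minus strand for Rsad2 and chr19:34583279-34583578 on the plus strand for Ifit3. Capitals mark GAAA, then any 2 bases, then GAAA again, or the reverse complement.
Rsad2: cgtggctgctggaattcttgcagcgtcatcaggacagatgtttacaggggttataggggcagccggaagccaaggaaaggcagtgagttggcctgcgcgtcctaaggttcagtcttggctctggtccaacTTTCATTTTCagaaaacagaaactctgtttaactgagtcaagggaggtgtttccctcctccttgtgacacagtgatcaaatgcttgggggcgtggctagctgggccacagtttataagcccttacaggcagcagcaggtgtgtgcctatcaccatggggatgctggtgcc
Ifit3: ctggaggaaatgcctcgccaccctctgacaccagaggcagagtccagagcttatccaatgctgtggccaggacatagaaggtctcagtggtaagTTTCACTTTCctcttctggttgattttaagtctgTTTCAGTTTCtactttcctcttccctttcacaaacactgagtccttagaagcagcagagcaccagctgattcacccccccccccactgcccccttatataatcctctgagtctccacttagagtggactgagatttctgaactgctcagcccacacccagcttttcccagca
This motif (GAAA, N, N, GAAA), searched on both strands, was found in the windows of 10 of 15 interferon list members with a window and in 3.44% of all windows.

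Rsad2 (viperin), an antiviral enzyme, had 9.91, 1.94 and 2.72 CPM in CAST/EiJ and 19.6, 25.3 and 28.4 CPM in C57BL/6J. Its difference was -3.38 ± 0.35 (adjusted p = 1.07e-06), and -2.32 with replicate 1. Ifit3, which binds foreign RNA together with other Ifit proteins, had 12.8, 2.98 and 4.63 CPM in CAST/EiJ and 20.2, 17.7 and 30.6 CPM in C57BL/6J (-2.58 ± 0.30, adjusted p = 3.26e-06, and -1.75 with replicate 1). Ifit2 had 11.9, 1.62 and 2.05 CPM in CAST/EiJ and 8.03, 7.82 and 9.79 CPM in C57BL/6J, so it was lower by -2.21 on the log2 scale without replicate 1 and not called with it (-0.71, adjusted p = 0.284). Replicate 1 was the highest of the CAST/EiJ libraries for all 3 of these genes. Iigp1, an interferon-inducible GTPase against intracellular parasites, was low in all 3, at 0.054, 0.509 and 0.259 CPM in CAST/EiJ against 28.0, 41.2 and 50.0 CPM in C57BL/6J (-6.67 ± 0.38, adjusted p = 4.03e-10). Immunity-related GTPases vary between mouse strains in sequence and copy number, so for Iigp1 less RNA and lost reads cannot be told apart. Mx2 went the other way, with 51, 3.82 and 3.51 CPM in CAST/EiJ and 0.709, 0.913 and 1.16 CPM in C57BL/6J (1.99 ± 0.37, adjusted p = 0.000537, and 4.39 with replicate 1). Ifi27l2a had 59.2, 455 and 530.0 CPM in CAST/EiJ and 126, 158 and 379.5 CPM in C57BL/6J. It differed by 1.16 (adjusted p = 0.0121), and it did not pass with CAST/EiJ replicate 1 (0.65), without C57BL/6J replicate 2 (0.97) or without CAST/EiJ replicate 3 (1.04); without C57BL/6J replicate 3 the difference was 1.8.

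Genes of heat production by brown and beige adipocytes were higher in the fat of CAST/EiJ replicates 2 and 3. Of 16 members 8 were higher and 1 lower, against 4 and 1 with replicate 1, and 11 and 2 on the standard diet. Elovl3, an elongase of very long fatty acids that marks cold-activated brown fat, had 0.067, 20.6 and 3.19 CPM in CAST/EiJ and 0.387, 0.219 and 0.344 CPM in C57BL/6J. Its difference was 5.22 ± 0.75 (adjusted p = 4.09e-05), and 3.32 without CAST/EiJ replicate 2 or 6.01 without replicate 3. Cidea, a lipid droplet protein of brown adipocytes, had 1.41, 116 and 21.6 CPM in CAST/EiJ and 8.61, 1.39 and 1.85 CPM in C57BL/6J (4.11 ± 0.75, adjusted p = 0.000432). Without CAST/EiJ replicate 2 Cidea differed by 2.44, without CAST/EiJ replicate 3 by 4.87 and without C57BL/6J replicate 1 by 5.42. Replicate 2 was the highest of the CAST/EiJ libraries for both, replicate 3 still lay above all C57BL/6J libraries, and replicate 1 lay at or below them.

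Ucp1 is not among the genes that the naming rule picks, and was chosen once its values were known. It had 0.067, 237 and 32.2 CPM in CAST/EiJ and 10.2, 1.37 and 0.235 CPM in C57BL/6J, a difference of 5.07 ± 1.14 (adjusted p = 0.00246), or 4.50 with replicate 1 (adjusted p = 0.0376). Without CAST/EiJ replicate 2 it was 3.01 and did not pass (adjusted p = 0.082), without CAST/EiJ replicate 3 it was 5.89, and without C57BL/6J replicate 1 it was 7.44. On the standard diet the 3 CAST/EiJ libraries lay close together, at 80.3, 96.3 and 103 CPM, against 0.162, 2.38 and 0.760 CPM in C57BL/6J. Cox8b, a muscle and brown fat subunit of cytochrome oxidase, had 0.094, 46.8 and 14.3 CPM in CAST/EiJ and 6.59, 5.48 and 4.65 CPM in C57BL/6J. It differed by 2.46, by 1.87 with CAST/EiJ replicate 1 (adjusted p = 0.139), by 1.37 without replicate 2 and by 3.07 without replicate 3. Prdm16, a regulator of beige adipocyte identity, did not follow: it had 1.29, 18.9 and 8.75 CPM in CAST/EiJ and 24.3, 31.9 and 21.1 CPM in C57BL/6J. Its difference of -0.89 passed (adjusted p = 0.0264), but not without C57BL/6J replicate 2 (-0.71) or CAST/EiJ replicate 3 (-0.44), and it was -1.55 without CAST/EiJ replicate 2.

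Fatty acid oxidation and the respiratory chain were higher too. Of 21 genes of fatty acid uptake and oxidation 14 were higher and 1 lower, with a median of 0.84, and 13 and 1 on the standard diet; with replicate 1 the counts were 3 and 1. Slc25a20, which carries acylcarnitines into mitochondria, had 12.2, 74.3 and 52.6 CPM in CAST/EiJ and 17.8, 21.4 and 25.4 CPM in C57BL/6J (1.56 ± 0.17, adjusted p = 2.48e-06). Cpt1b, the muscle and brown fat form of carnitine palmitoyltransferase, had 2.03, 62.9 and 16.5 CPM in CAST/EiJ and 7.92, 3.49 and 1.91 CPM in C57BL/6J (3.16 ± 0.56, adjusted p = 0.000332). Cpt1b differed by 1.90 without CAST/EiJ replicate 2, by 3.82 without CAST/EiJ replicate 3 and by 3.90 without C57BL/6J replicate 1. Ppara, the nuclear receptor that turns on oxidation genes, differed by 2.42, by 1.84 with CAST/EiJ replicate 1 (adjusted p = 0.091) and by 1.63 without CAST/EiJ replicate 2, and Ehhadh, a peroxisomal enzyme, by 1.41 or 0.85 with CAST/EiJ replicate 1 (adjusted p = 0.315). Acadvl, the first dehydrogenase for long fatty acids, was the 1 lower member, with 11.4, 102 and 54.6 CPM in CAST/EiJ and 226, 218 and 299.9 CPM in C57BL/6J (-1.65 ± 0.25, adjusted p = 6.88e-05). Acadvl was lower on the standard diet as well (-1.59).

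Of 20 oxidative phosphorylation genes, 16 were higher and 0 lower without replicate 1 and 19 were higher on the standard diet, but 0 were called with replicate 1. The median was 0.64 without that library and 0.26 with it. Uqcrc1, a core subunit of complex III, had 67.7, 308 and 202 CPM in CAST/EiJ and 105, 116 and 141 CPM in C57BL/6J (1.09 ± 0.18, adjusted p = 0.000153, and 0.68 with replicate 1, adjusted p = 0.127). Atp5b, the catalytic subunit of ATP synthase, had 498, 2889 and 2066 CPM in CAST/EiJ and 1291, 1410.0 and 1686 CPM in C57BL/6J (0.77, adjusted p = 0.00144). Without CAST/EiJ replicate 2, Atp5b differed by 0.50 and did not pass (adjusted p = 0.0634), and with replicate 1 by 0.31. In 13 of the 20 genes CAST/EiJ replicates 2 and 3 both lay above every C57BL/6J library. The share of all genes with that order was not counted, so the 13 is not a result about the list. When C57BL/6J replicate 1 was left out as well, 10 of the 20 were higher and 0 lower.

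**Figure D5:**
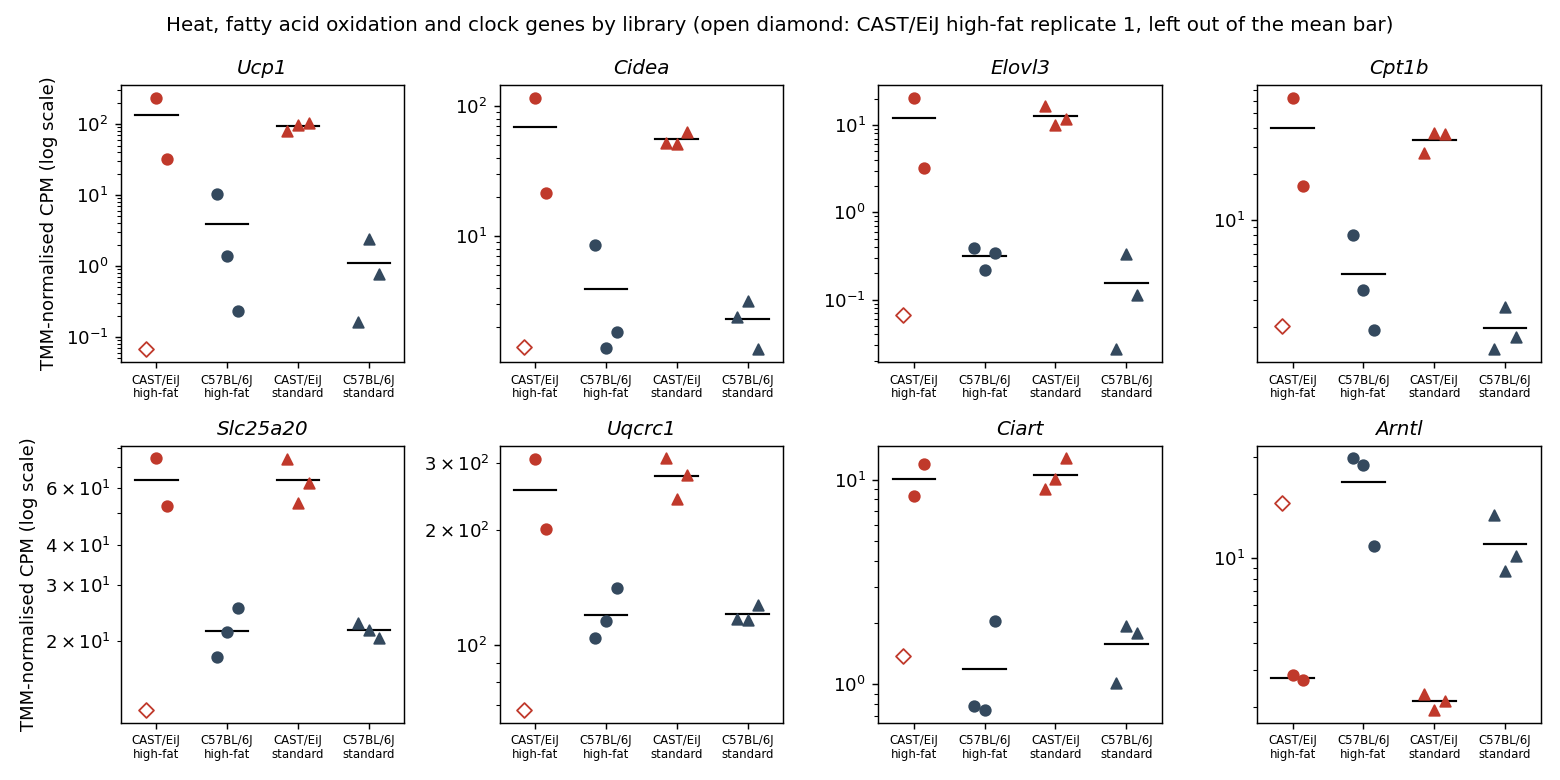
Normalised CPM of 8 genes of heat production, oxidation and the clock in each library, on log axes, CAST/EiJ then C57BL/6J on the high-fat diet and then on the standard diet, with bars for group means and an open diamond for CAST/EiJ high-fat replicate 1, left out of its mean. Ucp1 in CAST/EiJ replicates 2 and 3 differs widely, at 237 and 32.2 CPM, and the 3 CAST/EiJ libraries on the standard diet lie at 80.3 to 103 CPM.

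Of 18 adipocyte identity genes 2 were higher and 1 lower, and 1 and 1 with replicate 1. Neither count lay above the shares of 14.1% and 16.9% over all genes. Adipoq itself had 1586 and 2484 CPM in CAST/EiJ replicates 2 and 3 and 1189, 1630.0 and 2059 CPM in C57BL/6J (0.33, adjusted p = 0.333). Of 20 genes of fatty acid synthesis 4 were higher and 0 lower on the high-fat diet (2 and 1 with replicate 1), against 14 higher and 0 lower on the standard diet; the difference between these counts was not tested. Acacb, the acetyl-CoA carboxylase whose product restrains oxidation, had 22.7, 1166 and 522 CPM in CAST/EiJ and 179.8, 94.5 and 375 CPM in C57BL/6J. It differed by 1.97 (adjusted p = 0.00969), by 1.28 without CAST/EiJ replicate 2 (adjusted p = 0.18), by 1.40 with CAST/EiJ replicate 1 and by 2.63 without C57BL/6J replicate 3. Of 14 triglyceride assembly genes 4 were higher and 1 lower, but 0 higher and 1 lower with replicate 1. Pck1, which feeds glycerol synthesis, had 7.10, 3844 and 3558 CPM in CAST/EiJ and 567, 939 and 1684 CPM in C57BL/6J (1.81, adjusted p = 0.00324). With replicate 1 its difference was 1.22 and did not pass (adjusted p = 0.381). Gk, glycerol kinase, differed by 1.71, by 1.23 with CAST/EiJ replicate 1 (adjusted p = 0.0517) and by 1.07 without CAST/EiJ replicate 2. Of 17 lipolysis and lipid droplet genes 4 were higher and 2 lower, and 1 and 1 with replicate 1. Beside the 14.1% and 16.9% of all genes, these counts are not a result about the list. Plin5, a droplet protein of oxidative cells, differed by 1.82, and by 1.24 with replicate 1 (adjusted p = 0.236). Hilpda, an inhibitor of the lipase that starts triglyceride breakdown, had 2.91, 2.41 and 2.61 CPM in CAST/EiJ and 6.00, 9.66 and 3.91 CPM in C57BL/6J (-1.37, adjusted p = 0.00135).

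Of 14 hormones of fat 3 were higher and 2 lower, and 1 and 2 with replicate 1. These counts, and those of insulin signalling, are near the 14.1% and 16.9% of all genes, so they are not results about the lists. Nampt, which makes a precursor of NAD and is also secreted, had 34.0, 108 and 78.3 CPM in CAST/EiJ and 42.9, 32.3 and 50.7 CPM in C57BL/6J (1.16 ± 0.18, adjusted p = 0.000108). Metrnl, a secreted protein linked to browning, had 14.2, 15.9 and 16.9 CPM in CAST/EiJ and 24.2, 32.8 and 31.7 CPM in C57BL/6J (-0.84). Leptin (Lep), the satiety hormone, varied more within groups than between them, at 1.56, 71.4 and 712 CPM in CAST/EiJ and 701, 1225 and 198 CPM in C57BL/6J (-0.84, adjusted p = 0.426). Without CAST/EiJ replicate 3 the Lep difference was -3.30 and passed, and without CAST/EiJ replicate 2 it was 0.017. Of 17 insulin signalling genes 3 were higher and 2 lower, and 1 and 2 with replicate 1. Foxo1, a transcription factor that insulin keeps out of the nucleus, had 43.8, 56.6 and 83.7 CPM in CAST/EiJ and 36.9, 38.9 and 40.9 CPM in C57BL/6J. Its difference of 0.86 (adjusted p = 0.0012) did not pass without CAST/EiJ replicate 3 (0.55, adjusted p = 0.057). Slc2a4, the insulin-regulated glucose transporter, had 10.7, 64.0 and 70.6 CPM in CAST/EiJ and 104, 112 and 185 CPM in C57BL/6J (-0.98, adjusted p = 0.0259); it did not pass without C57BL/6J replicate 3 (-0.68), CAST/EiJ replicate 2 (-0.92) or CAST/EiJ replicate 3 (-1.06). Bckdhb, a subunit of the enzyme that commits branched-chain amino acids to breakdown, had 9.27, 190.3 and 210.5 CPM in CAST/EiJ and 38.2, 49.7 and 72.5 CPM in C57BL/6J (1.91 ± 0.21, adjusted p = 1.63e-06, and 1.35 with replicate 1, adjusted p = 0.0964). It was 1 of 4 higher genes among 20, of which 1 was lower, against 0 higher and 2 lower with replicate 1. Beside the 14.1% and 16.9% of all genes, these counts are not a result about that list either.

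Cholesterol synthesis genes were lower or not called. Of 22 genes 6 were lower and 0 higher on the high-fat diet (7 and 0 with replicate 1), and 2 were lower and 5 higher on the standard diet. Over all genes 16.9% were lower and 14.1% higher on the high-fat diet, and 20.1% and 19.5% on the standard diet. The difference between the counts of the 2 diets was not tested. Sc5d, a late enzyme of the pathway, had 11.6, 19.8 and 40.8 CPM in CAST/EiJ and 93.6, 125 and 144 CPM in C57BL/6J (-1.99 ± 0.31, adjusted p = 9.38e-05, and -2.61 without CAST/EiJ replicate 3). Cyp51, the lanosterol demethylase, had 11.7, 13.7 and 13.9 CPM in CAST/EiJ and 26.9, 28.8 and 27.5 CPM in C57BL/6J (-1.0, adjusted p = 0.00441). Both genes had no overlap between strains.

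Tst, a mitochondrial sulfur transferase, had 6.03, 34.4 and 14.1 CPM in CAST/EiJ and 9.57, 7.29 and 17.6 CPM in C57BL/6J, groups that overlapped. Its difference of 1.08 did not pass (adjusted p = 0.073). It passed without C57BL/6J replicate 3 (1.53) and without CAST/EiJ replicate 3 (1.59), and was 0.30 without CAST/EiJ replicate 2. On the standard diet Tst had 109.9, 43.3 and 47.4 CPM in CAST/EiJ and 9.37, 14.4 and 5.83 CPM in C57BL/6J (2.78, adjusted p = 5.73e-05). The test of whether the strain difference in Tst differed between diets gave -1.69 (adjusted p = 0.275). Ethe1, a sulfide-oxidising dioxygenase, had 12.5, 5.99 and 5.84 CPM in CAST/EiJ and 2.84, 2.19 and 2.66 CPM in C57BL/6J (1.21, adjusted p = 0.000339). It was 1 of 2 higher genes among 11 of sulfide oxidation and sulfur amino acids, of which 2 were lower. The counts were the same with replicate 1, but only 1 of the lower genes was called in both fits. They are near the 14.1% and 16.9% of all genes, so they are not a result about the list. Of 32 glutathione and antioxidant genes 8 were higher and 2 lower, against 14.1% and 16.9% of all genes, and 3 and 1 with replicate 1. Catalase (Cat), at 21.7, 949 and 1349 CPM in CAST/EiJ and 459.6, 634 and 596 CPM in C57BL/6J, differed by 1.04 (0.46 with replicate 1, adjusted p = 0.657).

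Of 17 retinoid genes 1 was higher and 4 lower, and 3 and 3 with replicate 1. The shares over all genes were 14.1% and 16.9%, so these counts are not a result about the list. Rbp7, a retinol-binding protein of fat and its vessels, had 0.054, 106 and 119 CPM in CAST/EiJ and 4.56, 8.18 and 13.3 CPM in C57BL/6J (3.71 ± 0.35, adjusted p = 3.21e-07, and 3.11 with CAST/EiJ replicate 1). Aldh1a7, an aldehyde dehydrogenase closely related to Aldh1a1, had 0.391, 5.07 and 6.79 CPM in CAST/EiJ and 116, 132 and 118 CPM in C57BL/6J (-4.36 ± 0.36, adjusted p = 5.22e-08). Thra, a thyroid hormone receptor, had 19.1, 26.1 and 35.5 CPM in CAST/EiJ and 99.9, 123 and 147 CPM in C57BL/6J (-1.99, adjusted p = 7.98e-06).

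Clock genes differed between the strains in opposite directions. Of 18 measured, 8 were higher and 3 lower in CAST/EiJ, and 12 and 3 on the standard diet; with replicate 1 they were 2 and 1. The clock turns on a loop in which Arntl (BMAL1) drives its own repressors through E-boxes and is itself held down by Nr1d1 and raised by Ror receptors. The labels used here give no hour of collection, so strain and time of day cannot be told apart. The windows of Ciart, a repressor of the complex of Arntl and Clock, at chr3:95882179-95882478 on the minus strand, and of Arntl, at chr7:113207261-113207560 on the plus strand, are shown because these genes sit on opposite arms of the loop and moved in opposite directions. Both are RefSeq windows of GRCm38.p6, and capitals mark CACGTG in Ciart and TAGGTCA or its reverse complement in Arntl.
Ciart: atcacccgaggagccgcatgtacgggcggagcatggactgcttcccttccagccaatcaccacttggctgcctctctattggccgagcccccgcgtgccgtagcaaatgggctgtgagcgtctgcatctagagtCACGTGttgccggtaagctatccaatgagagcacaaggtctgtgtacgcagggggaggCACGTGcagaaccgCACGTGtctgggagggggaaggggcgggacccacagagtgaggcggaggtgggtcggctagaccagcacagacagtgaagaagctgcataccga
Arntl: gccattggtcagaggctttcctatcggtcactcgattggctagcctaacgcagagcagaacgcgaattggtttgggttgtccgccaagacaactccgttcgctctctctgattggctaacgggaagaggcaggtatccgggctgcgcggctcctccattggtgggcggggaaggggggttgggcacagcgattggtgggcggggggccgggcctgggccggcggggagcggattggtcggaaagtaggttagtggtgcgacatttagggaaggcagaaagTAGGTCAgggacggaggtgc
CACGTG, which reads the same on both strands, was found 3 times in Ciart, in 5 of 15 clock members with a window and in 7.15% of all windows; TAGGTCA, searched on both strands, was found in 1 of the 15, Arntl, and in 2.61% of all windows.

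Ciart had 1.37, 8.28 and 11.9 CPM in CAST/EiJ and 0.786, 0.749 and 2.03 CPM in C57BL/6J (3.09 ± 0.46, adjusted p = 5.51e-05, and 3.72 without C57BL/6J replicate 3). Per2, a repressor of the same loop, had 40.5, 80.3 and 59.3 CPM in CAST/EiJ and 23.7, 11.6 and 18.7 CPM in C57BL/6J (1.96 ± 0.38, adjusted p = 0.000691). Arntl had 18.3, 2.82 and 2.67 CPM in CAST/EiJ and 29.5, 27.4 and 11.4 CPM in C57BL/6J, where CAST/EiJ replicate 1 lay within the C57BL/6J range. It differed by -3.04 ± 0.42 without replicate 1 (adjusted p = 2.68e-05) and by -1.52 with it (adjusted p = 0.0525). Npas2, a partner of Arntl, had 7.88, 0.294 and 0.302 CPM in CAST/EiJ and 4.00, 1.68 and 1.27 CPM in C57BL/6J. It differed by -2.95 without CAST/EiJ replicate 1, by 0.29 with it, and by -2.29 without C57BL/6J replicate 1.

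Of 15 endothelial genes 5 were lower and 1 higher, and 6 and 0 with replicate 1. The 1 higher gene was Fabp4, which is also in the adipocyte identity list. Pecam1 (CD31), the junction protein of endothelium, had 73.7, 122 and 120.0 CPM in CAST/EiJ and 372, 376 and 245 CPM in C57BL/6J (-1.45 ± 0.17, adjusted p = 3.05e-06). Cldn5, a tight junction protein of endothelium, differed by -1.29 and Egfl7, a secreted endothelial protein, by -0.99. Of 24 collagen and fibrosis genes 4 were higher and 5 lower, and 4 and 4 with replicate 1. These counts are near the 14.1% and 16.9% of all genes, as is the lower count of the proliferation list below, so they are not results about the lists. Col1a1, the main fibrillar collagen chain, had 446, 99.2 and 89.8 CPM in CAST/EiJ and 343, 483 and 309 CPM in C57BL/6J (-2.0, adjusted p = 0.000207, and -0.84 with CAST/EiJ replicate 1, adjusted p = 0.194). Sparc, a matrix protein of vessels and fibroblasts, had 1200.0, 879 and 1283 CPM in CAST/EiJ and 3086, 4812 and 2007 CPM in C57BL/6J (-1.60). Mmp2, a gelatinase, was higher by 1.16. Of 18 proliferation genes 3 were lower and 0 higher in both fits, with a median of -0.85 without replicate 1, against -0.06 for all genes. Top2a, a topoisomerase of dividing cells, had 2.95, 0.939 and 1.40 CPM in CAST/EiJ and 11.1, 14.0 and 5.92 CPM in C57BL/6J (-3.14, and -2.54 with CAST/EiJ replicate 1). Of 13 adrenergic and natriuretic genes 5 were higher and 0 lower, but 1 and 0 with replicate 1. Of 15 progenitor genes 0 were higher and 3 lower (0 and 1 with replicate 1), and of 20 Hox and position genes 0 and 4 (0 and 2). Of 19 complement and acute phase genes 3 were higher and 4 lower, and 3 and 4 with replicate 1. Only 1 higher and 3 lower genes of that list were called in both fits. Of 21 immediate early and stress genes, which respond to handling of tissue, 3 were higher and 0 lower, and 4 and 0 with replicate 1. The lower counts of the progenitor and Hox lists are near the 16.9% of all genes. The higher count of the immediate early list is near the 14.1%. Both complement counts are near these shares too, so none of these counts is a result about its list.

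The widest differences were close to on and off. Gsdma3, a gasdermin of skin, had 1.95, 9.32 and 6.29 CPM in CAST/EiJ and 0.013, 0 and 0 CPM in C57BL/6J. Tas1r1, a subunit of the savoury taste receptor, had 162, 83.6 and 75.4 CPM in CAST/EiJ and 0.593, 0.164 and 0.266 CPM in C57BL/6J (7.83 ± 0.70, adjusted p = 1.54e-07, and 8.52 without C57BL/6J replicate 1). Trim43b and Trim43c, near-identical copies and so uncertain, differed by 6.64 and 6.00; Trim43b differed by 6.01 without CAST/EiJ replicate 2. Chrnb4, a nicotinic receptor subunit, had 0.269, 3.19 and 7.37 CPM in CAST/EiJ and 0.026, 0.091 and 0.047 CPM in C57BL/6J (6.61, and 5.88 without CAST/EiJ replicate 3). On the lower side, Tmem45b had 29.7, 0.391 and 0.194 CPM in CAST/EiJ and 157, 145 and 122 CPM in C57BL/6J. It differed by -8.88 ± 0.54 (adjusted p = 8.3e-10), by -3.80 with CAST/EiJ replicate 1 and by -9.49 without CAST/EiJ replicate 2. Wfdc17 was at 0, 0 and 0.022 CPM in CAST/EiJ and 4.47, 6.68 and 5.08 CPM in C57BL/6J. Spink1, a trypsin inhibitor, had 0.027, 0.020 and 0.108 CPM in CAST/EiJ and 74.2, 0.548 and 0.360 CPM in C57BL/6J. Its difference of -8.61 rested on C57BL/6J replicate 1, without which it was -2.81 and did not pass (adjusted p = 0.0999); it did not pass either without CAST/EiJ replicate 2 (-7.83) or CAST/EiJ replicate 3. Pcdh15, a cadherin of hair cells, differed by -7.97, by -4.54 with CAST/EiJ replicate 1, by -6.48 without C57BL/6J replicate 3 and by -7.19 without CAST/EiJ replicate 2. Fam213b, a prostamide synthase, had 0.162, 0.196 and 0.453 CPM in CAST/EiJ and 68.2, 87.0 and 27.8 CPM in C57BL/6J (-7.56, and -8.27 without CAST/EiJ replicate 3).

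Counted over both diets and without CAST/EiJ replicate 1, 36 genes were at 1 CPM or more in all 5 CAST/EiJ libraries and at 0.05 CPM or less in all 6 C57BL/6J libraries. Of these 6 were protein coding (Amy2a5, Cdh7, Gm5678, Gsdma3, Tspan10 and Yipf7) and 26 pseudogenes. The reverse held for 15 genes, of which 7 were protein coding (Efcab1, Lefty1, Nxph1, Olfr1033, Skint3, Vwc2 and Wfdc17) and 8 pseudogenes. Pseudogenes were called higher in CAST/EiJ more than lower, with 403 (27.3%) higher and 196 (13.3%) lower of 1474 tested. Protein-coding genes ran the other way, with 2133 (13.2%) higher and 2742 (16.9%) lower of 16207. Above 16-fold, 106 pseudogenes were higher and 50 lower, while 87 protein-coding genes were higher and 269 lower. Among 399 genes of multigene families that copy and diverge quickly, 51 (12.8%) were higher and 84 (21.1%) lower: 7 of 9 Schlafen genes, 6 of 9 genes of the Trim5 cluster and 4 of 5 NLR inhibitors of apoptosis were lower and 0 higher. Of these, 3 Schlafen genes, 3 of the Trim5 cluster and 0 NLR inhibitors were also called lower with replicate 1. By contrast, 18 of 65 clustered KRAB zinc finger genes were higher and 14 lower and 0 of 17 glutathione transferases were called. These family genes and the pseudogenes have close copies, so the authors' counting could split them and their values are uncertain. Whether the pseudogenes are transcribed in only 1 strain was not tested.

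Known lesions of C57BL/6J bear on some single genes. Nnt, the mitochondrial transhydrogenase that lost exons in C57BL/6J, had 127, 91.1 and 149.7 CPM in CAST/EiJ and 52.1, 58.3 and 62.1 CPM in C57BL/6J (1.07 ± 0.18, adjusted p = 0.00025, and 1.09 with replicate 1). All CAST/EiJ libraries lay above all C57BL/6J libraries, and on the standard diet the difference was 1.45. Mx1, an antiviral GTPase that is truncated in C57BL/6J, had 116, 4.40 and 4.29 CPM in CAST/EiJ and 5.76, 7.03 and 9.40 CPM in C57BL/6J. It differed by -0.76 without CAST/EiJ replicate 1 (adjusted p = 0.166) and by 2.49 with it (adjusted p = 0.038). Gabra2 and Ifi202b were at 0.216 CPM or less in all 6 libraries and were not called.

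Few genes were called in the test of whether the strain difference itself differed between the diets. With 2 CAST/EiJ high-fat libraries, a gene not called is not shown to have the same strain difference on both diets. The high-fat strain difference minus the standard-diet one was called for 31 genes above 0 and 15 below it, 0.226% of the genes tested, and for 12 genes with replicate 1 included; 2334 genes had an unadjusted p under 0.05. Insig1, which holds back cholesterol synthesis when sterols are plentiful, had 7.60, 92.1 and 157 CPM in CAST/EiJ and 245, 268 and 202 CPM in C57BL/6J on the high-fat diet, against 157.5, 133 and 119.4 CPM in CAST/EiJ and 43.2, 47.1 and 60.3 CPM in C57BL/6J on the standard diet. The strain difference was therefore below 0 on the high-fat diet (-0.93, adjusted p = 0.0286, a call lost without C57BL/6J replicate 1 or 2 or CAST/EiJ replicate 2, and with all 24 libraries, at -1.48 and adjusted p = 0.0696) and above 0 on the standard diet (1.46), and the 2 differed by -2.39 (adjusted p = 0.0259; all 24 libraries, -2.92 and not called). Trpv2, a cation channel, had 21.1, 15.3 and 13.8 CPM in CAST/EiJ and 12.7, 12 and 10.5 CPM in C57BL/6J on the high-fat diet, against 5.79, 5.89 and 5.89 CPM in CAST/EiJ and 27.3, 22.5 and 16.6 CPM in C57BL/6J on the standard diet (2.22, adjusted p = 0.02, and 0.00624 with replicate 1). C4b, complement component 4, gave 1.68 (adjusted p = 0.0259, and 0.0456 with replicate 1), with 406, 437 and 438 CPM in CAST/EiJ and 227, 505 and 337 CPM in C57BL/6J on the high-fat diet, against 199.5, 252 and 204 CPM in CAST/EiJ and 669, 527 and 521 CPM in C57BL/6J on the standard diet; its near-identical copy C4a makes both uncertain. Among other libraries, each of the 3 calls was lost when C57BL/6J standard-diet replicate 1 or 2, or CAST/EiJ standard-diet replicate 1, was left out.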

How the data were processed

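RNA of inguinal fat was converted to poly(A) TruSeq libraries and sequenced in pairs, per the labels' protocols. The authors deposited gene-level expected counts, already whole numbers, and the submitters' processing notes name CASAVA 1.8.0, RSEM 1.2.1, Bowtie 0.12.8 and the builds NCBIM37 and mm9, with no role or order. How the estimated counts were rounded is not given in the sources used here. Of 37991 gene identifiers, 32919 (86.65%) matched a symbol. The deposited upper-quartile table was not used.

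Counts were analysed with edgeR 4.0.16 in R 4.3.3. Genes were filtered by group, libraries scaled by TMM, and 1 coefficient per strain and diet fitted to all 24 libraries (16 residual degrees of freedom) or to 23 without CAST/EiJ high-fat replicate 1 (15). All groups shared 1 estimate of the spread. Tests were 2-sided quasi-likelihood F tests with Benjamini-Hochberg adjustment over all genes tested at 0.05. The test was checked on simulated data. Replicates are separate mice per the labels, numbered in accession order, so they pair nothing; libraries of a high-fat group differed beyond counting error, with chi-square over degrees of freedom at 135 to 1580 between pairs. Marker sums use CPM over unscaled totals. DESeq2 1.42.0 and limma 3.58.1 served as alternatives.

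The members and gene lists were chosen with earlier results of these data known. Named genes are, of each list, up to 4 per direction with the smallest adjusted p without replicate 1. From all genes, the rule takes the 12 highest and 12 lowest called in both fits with no overlap between the strains, a higher group mean of at least 5 CPM and a symbol other than those of predicted genes, clones and pseudogenes. Nnt and the other C57BL/6J alleles, Tst, and up to 6 interaction genes per direction complete it. The text names part of these, passing over some of higher rank. H2-Ab1, H2-Eb1, Kap, Adipoq, Lep, Ucp1, Cd3e, Ighm and the genes listed as on in only 1 strain were named outside the rule, after their values were seen. The same holds for Epcam, Krt8, Cdh1, Krt14, Elf5, Prss28 and Prss29. Fold changes are not given where a group held 3 counts or fewer.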

Additional observations from a re-analysis of the deposited data

Results flagged for a closer look

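For 12 genes the strain difference on the high-fat diet differed from that on the standard diet by the test of that difference (edgeR's quasi-likelihood test, adjusted p below 0.05 over all genes, without CAST/EiJ high-fat replicate 1) and met the rule for named genes. Values are the high-fat strain difference minus the standard-diet one on the log2 scale. Above 0 were Akr1cl (7.64), Tnfrsf12a (2.33), Serpinb6b (2.26), Trpv2 (2.22), C4b (1.68) and C4a (1.61). Below 0 were Hsd11b1 (-2.13), Igfals (-2.23), Mmp9 (-2.32), Insig1 (-2.39), Mttp (-2.99) and Marc1 (-3.87). With replicate 1 included, Trpv2, C4b and C4a still passed and the other 9 did not. All 12 lost the call without C57BL/6J standard-diet replicate 1, without C57BL/6J standard-diet replicate 2, and without CAST/EiJ standard-diet replicate 1. Of the 12, 11 lost it without C57BL/6J high-fat replicate 3, 11 without CAST/EiJ standard-diet replicate 3, 11 with only the groups compared, and 10 without CAST/EiJ high-fat replicate 2.

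Hsd11b1, which activates glucocorticoids in fat, had 7.46, 101 and 65.6 CPM in CAST/EiJ and 51, 48.1 and 49.7 CPM in C57BL/6J on the high-fat diet, against 396, 220.3 and 348 CPM in CAST/EiJ and 38.8, 37.9 and 55.2 CPM in C57BL/6J on the standard diet. Igfals, which stabilises circulating insulin-like growth factors, had 0.620, 31.9 and 33.5 CPM in CAST/EiJ and 100.4, 146 and 76.2 CPM in C57BL/6J on the high-fat diet, against 122, 102 and 109.5 CPM in CAST/EiJ and 71.4, 64.9 and 98.5 CPM in C57BL/6J on the standard diet. Marc1, a mitochondrial reductase of the outer membrane, had 0.431, 6.17 and 3.17 CPM in CAST/EiJ and 55.4, 77.8 and 40.6 CPM in C57BL/6J on the high-fat diet, against 55.3, 24.4 and 46.8 CPM in CAST/EiJ and 22.7, 23.1 and 61.6 CPM in C57BL/6J on the standard diet.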

How the results depend on the processing

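Among 111 of the genes tested and named here, 67 kept their direction and side of the threshold under every setting. Under other tools, scalings, filters and choices of libraries for the spread, 92 did so. Fitting only the libraries of the groups compared left fewer libraries for the spread and gave 1295 higher and 1838 lower genes without CAST/EiJ replicate 1, 334 and 622 with it, and 2 and 0 for the difference between diets (0 and 0 with it). DESeq2 gave 192 and 193 for that difference without the replicate and 202 and 131 with it. Leaving out 6 libraries, those with Epcam of at least 5 CPM, gave 65 and 50 for it, and no filter beyond a count of 1 gave 2 and 2 with all libraries. Leaving out 1 library at a time gave 1948 to 2826 higher and 2122 to 3483 lower genes without replicate 1, 1566 to 3218 and 2198 to 3441 from all libraries, 3231 to 3654 and 3427 to 3729 on the standard diet, and for the difference between diets 0 to 84 and 0 to 33 without replicate 1 and 1 to 129 and 0 to 83 with all. Where CAST/EiJ kept 1 library, it was assumed to vary like the other groups.

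With all 24 libraries Mx1 (2.49), Npas2 (0.29), Ifi202b (0.43) and Adipoq (-0.26) changed sign; Adipoq did so without CAST/EiJ replicate 3 (-0.03, against 0.62 without replicate 2) and Lep without CAST/EiJ replicate 2 (0.017, against -3.30 without replicate 3). The cause was not tested. Leaving out C57BL/6J replicate 1 too, a setting chosen after seeing the data, gave 2426 higher and 2952 lower genes. No paired analysis was possible because replicate numbers only follow the order of deposit.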

Other observations

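On the same diet the other strains of the series did not follow 1 order. H2-Aa had 173, 98.8 and 112 CPM in WSB/EiJ and 460, 582 and 540 CPM in NZO/HiLtJ high-fat libraries. Trem2 had 14.0, 17.5 and 7.49 CPM in WSB/EiJ and 255, 335 and 223 CPM in NZO/HiLtJ, and Ucp1 had 22.7, 43.9 and 128 CPM in WSB/EiJ and 12.8, 9.76 and 13.3 CPM in NZO/HiLtJ. Cd74, Ccl5, Ccl8, Ifit3, Cidea, Elovl3 and Tst were also looked at. In WSB/EiJ these genes, H2-Aa and Ucp1 lay beyond all C57BL/6J high-fat libraries, on the side of the CAST/EiJ mean without replicate 1. Trem2 in WSB/EiJ did not. These levels are set side by side with no test.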
